A study of Sus scrofa with 8 samples.

Results

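In porcine embryonic fibroblasts (PEFs), 821 stretches of chromosomes 1 to 18 and X held no peak of the active histone marks H3K4me3 and H3K27ac over at least 300 kb. These long unmarked intervals were selected on the histone peak positions themselves. The peaks of the 4 deposited H3K4me3 and H3K27ac lists were pooled, and every gap of 300 kb or more between neighbouring pooled peaks was kept, with chromosome ends left out. The 821 intervals were drawn from 96180 gaps, whose median length was 6.36 kb, so the absence of both marks and the minimum length describe how they were found and are not results. The fibroblasts were grown from 35-day fetuses of Large White pigs, carried no treatment or genetic change, and were profiled by ChIP-seq for H3K4me3, H3K27ac and the DNA-binding protein CTCF, with 2 replicates of each. All groups were the same cells, so no treated or altered group was compared, and nothing in the labels says whether the 2 replicates of a mark came from separate fetuses or cultures. The authors' peak lists held 37932 and 43516 H3K4me3 peaks, 74983 and 81164 H3K27ac peaks, and 40289 and 44682 CTCF peaks in replicates 1 and 2. Of 16 fibroblast markers, 15 carried both marks at the gene start in both replicates (SPARC had no H3K4me3 peak in replicate 2), against 1 of 13 markers of other cell types (APOA1). Among those 13, MYOD1, MYF5, NEUROD1, EPCAM and CDH1 carried H3K4me3 without H3K27ac in both replicates.

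H3K4me3 sits at the starts of genes that are transcribed or ready to be transcribed, and H3K27ac sits at active promoters and enhancers. A long stretch without either mark is therefore a stretch with no detected active promoter or enhancer in the cell type examined; such stretches are known to hold genes used in other cell types, the interiors of very long genes, and gene-poor DNA. CTCF binds an asymmetric DNA sequence and, together with the cohesin ring, holds the bases of chromatin loops. The direction in which its sequence points matters there, because loops tend to form between sites that point towards each other.

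The CTCF sites below show what the factor bound inside and beside these intervals. They are 60 bases each, taken from RefSeq Sscrofa11.1 and written 5′ to 3′ on the strand of the match, with the CTCF core pattern CCNNNAGNNGGC in capitals. The first 3 had the highest mean fold enrichment, as the peak caller gave it, of any CTCF peak inside a long interval with this core, and the other 3 had the highest among peaks within 50 kb outside the edges of the 10 longest intervals.
Inside, chr1:231949260-231949319, plus strand: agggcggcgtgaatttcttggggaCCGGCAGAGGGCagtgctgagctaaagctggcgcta
Inside, chr8:16192135-16192194, plus strand: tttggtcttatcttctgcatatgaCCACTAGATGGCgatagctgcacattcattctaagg
Inside, chr13:95270350-95270409, plus strand: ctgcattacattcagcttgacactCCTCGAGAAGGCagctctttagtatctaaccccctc
Outside, chr14:117607719-117607778, plus strand: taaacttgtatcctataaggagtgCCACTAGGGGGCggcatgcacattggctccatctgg
Outside, chr14:117603031-117603090, plus strand: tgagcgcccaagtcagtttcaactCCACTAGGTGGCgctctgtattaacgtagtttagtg
Outside, chr1:243489400-243489459, plus strand: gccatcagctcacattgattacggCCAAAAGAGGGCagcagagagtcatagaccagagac

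The site on chromosome 1 inside an interval had a fold enrichment of 88.7 in CTCF replicate 1 and 103 in replicate 2 and lay 133 kb from the nearer edge of a 712 kb interval, in no annotated gene. The site on chromosome 8 reached 69.8 and 96.6 and lay in KCNIP4, which encodes a partner of potassium channels. The site on chromosome 13 reached 75.5 and 84.4 in a noncoding gene record. The pair on chromosome 14 lay in SORCS1, a sorting receptor gene, with 65.1 and 70.9 for the first and 51.0 and 62.5 for the second. The site on chromosome 1 outside an edge had 40.3 and 55.2. For scale, the median fold enrichments of all CTCF peaks were 19.7 and 19.2, and the 6 sites were chosen for lying high. The core pattern was present within 100 bp of 38.2% of CTCF summits, against 2.73% of control windows of the same length 1 kb away.

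The long intervals covered 468 Mb, or 19.6% of the 2392 Mb of these chromosomes. Their lengths had quartiles of 367, 457 and 646 kb. Of the 821 intervals, 354 reached 500 kb, 70 reached 1000 kb and 7 reached 2000 kb. The 5 shortest intervals kept measured 300 to 301 kb, and the 5 longest gaps left out measured 298 to 300 kb, so nothing separated the members from their neighbours in length. The X chromosome held 76 intervals that took up 42.6% of its length, while all autosomes together had 18.3%. Among autosomes the share ran from 9.35% on chromosome 12 to 24.3% on chromosome 11 and 25.2% on chromosome 16.

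**Figure D1:**
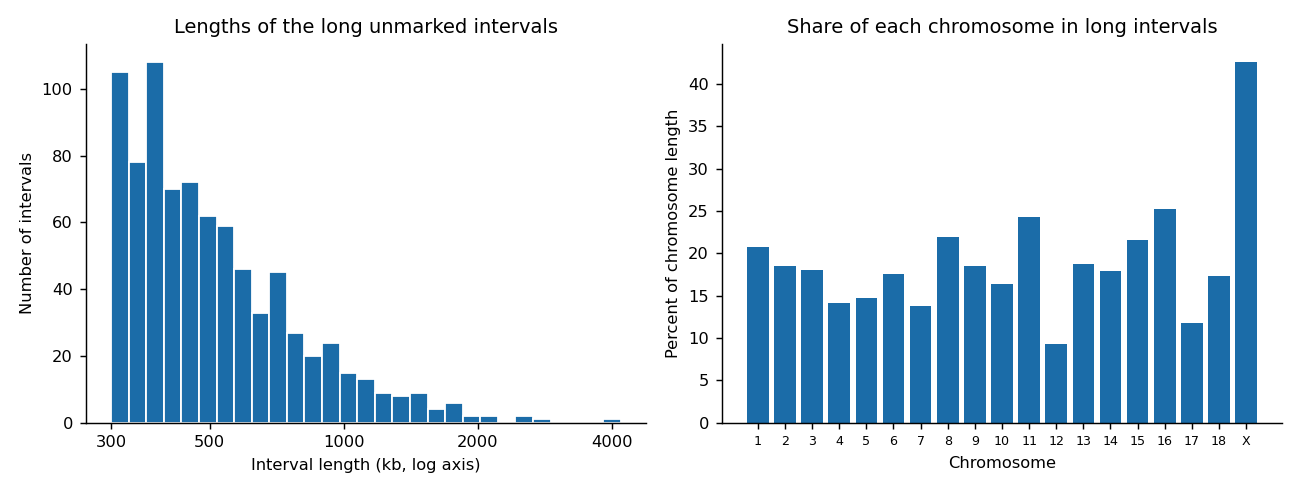
Left, number of the 821 long unmarked intervals by length in kb on a log axis; right, percent of each chromosome's length that lay in them (bars). Lengths fell off from 300 kb to a single interval of 4069.6 kb, and X, at 42.6%, stood above all 18 autosomes.

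The DNA of the intervals differed in makeup from the rest. Bases inside were 38.4% G or C, against 42.7% outside, and CpG dinucleotides numbered 7.71 per kb inside and 13.5 per kb outside. Soft-masked repeats made up 39.1% inside and 35.3% outside. Gaps of 100 to 300 kb, which numbered 3172 and covered 502 Mb, lay between these values, at 40.1% GC, 37.2% soft-masked and 9.71 CpG per kb. Unknown bases were 0.153% of the interval sequence and 0.060% of the rest, and 10 intervals had 5% or more, up to 29.7%. The authors kept read pairs that aligned to a single place, and the part that repeated or unknown sequence plays in the absence of peaks was not tested.

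Of the 1642 edges, 39.0% were bounded by H3K4me3 peaks alone, 32.9% by H3K27ac peaks alone and 28.1% by both marks. A single one of the 4 lists supplied the boundary at 26.2% of edges, and all 4 lists did at 17.8%. A protein-coding gene start lay within 1 kb of 20.1% of edge peaks, close to the 19.4% of all 235549 histone peaks. Neighbouring long intervals were sometimes parted by little: 156 of the 802 stretches between them were under 10 kb.

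CTCF was sparse inside the intervals. CTCF summits numbered 5.39 per Mb inside in replicate 1 and 6.07 in replicate 2 (5.73 ± 0.479, SD, n = 2), whereas outside they numbered 19.4 and 21.5 (20.5 ± 1.48, SD, n = 2). Both inside values lay far below both outside values, and the ratio of the densities was 0.278 in replicate 1 and 0.282 in replicate 2. Inside and outside were measured in the same 2 libraries, and with 2 such pairs an exact test cannot give a p-value below 0.5. None is given, and each ratio or difference is given within each replicate. Part of the ratio followed from the rule, because 39.4% and 40.9% of outside CTCF peaks overlapped a histone peak and such peaks cannot lie inside except at an edge. With CTCF peaks that overlapped a histone peak removed, a comparison added after seeing the data, the ratio was 0.453 and 0.473. In gaps of 100 to 300 kb the density was 10.7 and 11.7 per Mb, between that of the long intervals and that of the genome outside gaps of 100 kb or more (22.5 and 25). GC content moved with the same comparison, as given above, and its part in it was not tested.

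The density was lower inside than outside on 19 of 19 chromosomes in both replicates. In replicate 1 the ratio ran from 0.118 on chromosome 12 to 0.451 on chromosome 7, and in replicate 2 from 0.119 to 0.427 on the same chromosomes. The chromosome 7 values include a single interval, described below, with 35 and 36 CTCF peaks, and the ratio without it was not computed. Chromosome X, despite its large share of unmarked DNA, had ratios of 0.292 and 0.293, next to 0.284 and 0.288 for the autosomes together.

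**Figure D2:**
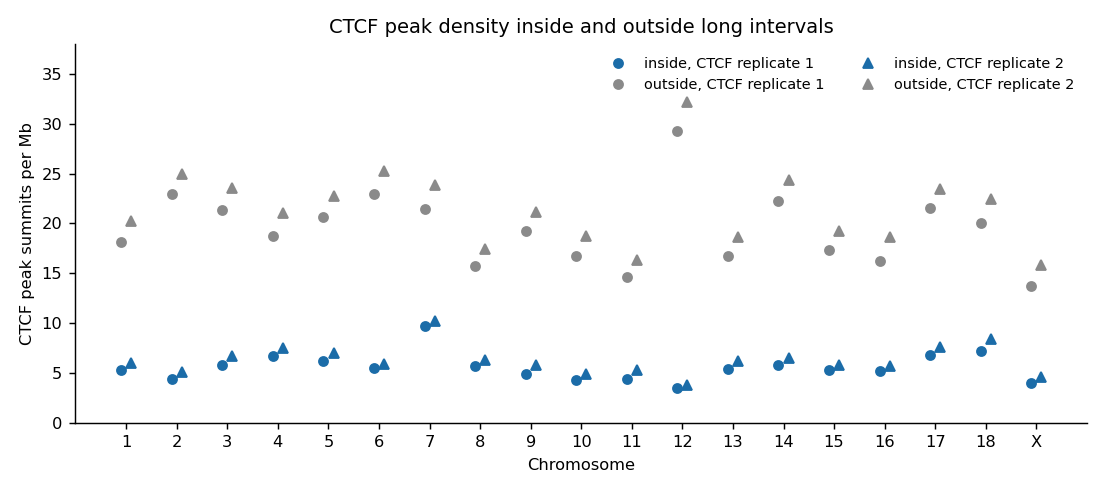
CTCF summits per Mb (vertical axis) inside (blue) and outside (grey) the long intervals on each chromosome, with circles for CTCF replicate 1 and triangles for replicate 2. On every chromosome both inside points lie below both outside points, and the inside points of chromosome 7, at 9.66 and 10.2, are the highest.

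CTCF density was lower in longer intervals. It was 7.72 and 8.65 per Mb in the 299 intervals of 300 to 400 kb, 5.79 and 6.48 in the 289 of 400 to 600 kb, 4.72 and 5.30 in the 163 of 600 to 1000 kb, and 3.26 and 3.78 in the 70 of 1000 kb or more. Each step down was seen in both replicates. It also differed by base composition: the intervals in the lowest GC quartile had 3.99 and 4.82 per Mb, and those in the highest GC quartile had 7.60 and 8.17. Across the 821 intervals, Spearman's rho of the mean density was -0.27 with length and 0.23 with GC, given as a description of regions that share the same libraries. A typical interval held 3 CTCF peaks in either replicate, and 58 intervals (7.06%) held none in both replicates.

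CTCF peaks inside were somewhat weaker than those outside. Their median fold enrichment was 16.9 and 15.5 in the 2 replicates, compared with 19.8 and 19.5 outside, a difference of -2.85 and -4.01 (-3.43 ± 0.819, SD, n = 2). The range between the first and the last quartile of the inside values ran from 8.73 to 30.8 in replicate 1, which overlapped widely with 9.37 to 32.1 outside. Of inside peaks, 94.8% of replicate 1 and 83.7% of replicate 2 overlapped a peak of the other replicate, against 96.0% and 85.8% outside. The core pattern was found at 37.9% and 37.1% of inside summits and at 39.2% and 37.3% of outside summits. A position weight matrix learned from these data, set so that 5% of control windows passed, matched 77.2% and 76.5% inside and 73.6% and 71.3% outside.

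CTCF density at the edges was close to that at the edges of shorter gaps. Within 50 kb outside the edges, CTCF density was 16.3 and 18.2 per Mb, below the 19.5 and 21.6 of the remaining genome outside intervals, a ratio of 0.837 and 0.840. Part of that flanking sequence was itself in other gaps. When gaps of 100 kb or more were left out, the flanks had 20.7 and 23.0 per Mb, and the flanks of gaps of 100 to 300 kb treated alike had 20.5 and 22.6. With such gaps left out, the first 10 kb outside the edge, which begins with the bounding histone peak, had 32.7 and 36 CTCF summits per Mb, against 30.7 and 34.4 at gaps of 100 to 300 kb, and the next 10 kb had 17.5 and 19.3, against 17.7 and 19.4. Leaving out CTCF peaks that overlapped histone peaks brought the first 10 kb to 9.35 and 9.54, against 10 and 10.5, so the order of the 2 kinds of edge turned. CTCF peaks overlapped the histone peaks at 15.2% and 16.9% of edges. Of all histone peaks, where a site counts once per list that called it, they overlapped 16.1% and 18.8%. Edge peaks found in a single list overlapped CTCF at 8.35% and 9.74%, and those found in all 4 lists at 21.2% and 24.6%.

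Inside the edge, CTCF density declined with distance. It was 14.6 and 15.3 per Mb in the first 10 kb, 6.94 and 7.98 at 40 to 50 kb, and 4.45 and 5.18 at 140 to 150 kb. The first 50 kb as a whole had 9.45 and 10.4 per Mb and the deeper interior 4.53 and 5.16, a ratio of 2.09 and 2.01. The first 50 kb of gaps of 100 to 300 kb had 11.8 and 12.8 per Mb, and there the density was 10.3 and 11.4 at 40 to 50 kb, the deepest step measured.

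**Figure D3:**
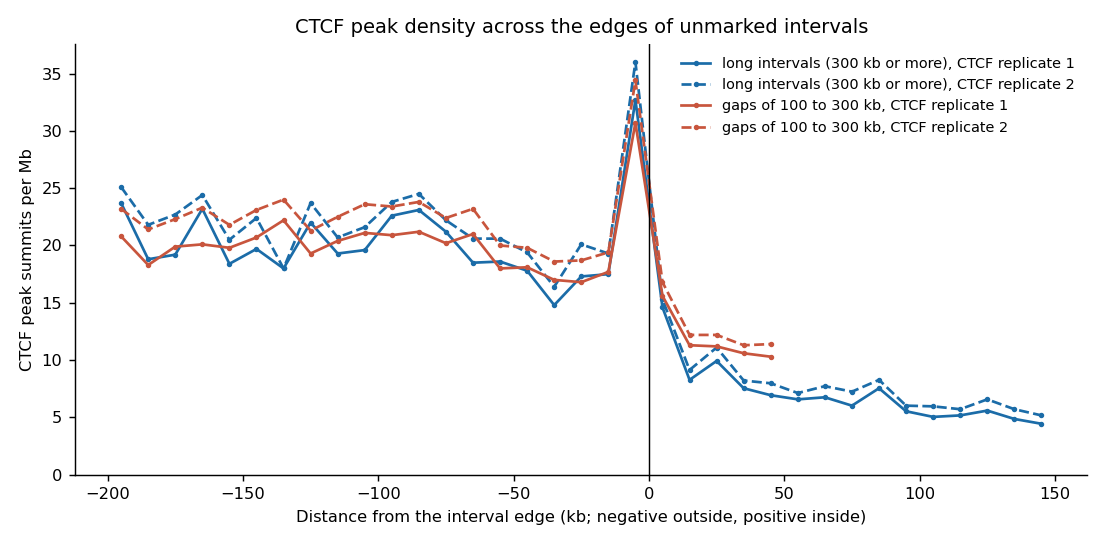
CTCF summits per Mb in 10 kb steps (vertical axis) against distance from the edge in kb, outside to the left and inside to the right, for the long intervals (blue) and gaps of 100 to 300 kb (red), with gaps of 100 kb or more left out of the outside of both, and with solid lines for CTCF replicate 1 and dashed lines for replicate 2. Both kinds of edge peak in the first 10 kb outside, at 32.7 and 30.7 in replicate 1, and the long intervals go on falling to 4.45 at 140 to 150 kb inside.

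CTCF motifs beside the edges pointed in and out in close to equal numbers. Of the 368 and 381 peaks within 50 kb outside an edge that held the core on a single strand, 52.2% and 51.4% pointed into the interval, a share that fell below 50% when stricter histone peaks or a minimum length of 200 kb were used (49.2% and 48.6%). With gaps of 100 kb or more left out of the flanks, the share was 53.4% and 53.3% of 320 and 330 peaks. At gaps of 100 to 300 kb treated alike, the values were 47.1% and 47.3% of 1615 and 1703 peaks. Motifs in the first 50 kb inside pointed to the centre of the interval in 55.6% and 55.9% of 293 and 315 peaks, and deeper motifs in 54.0% and 52.9% of 650 and 722. The replicates share most peaks, so their closeness says little about the error of these shares. Only 50 and 53 intervals had an oriented motif within 50 kb of both edges, and in 28.0% and 22.6% of those the pair was convergent, against 25% and 23.4% of the 220 and 248 gaps of 100 to 300 kb with such a pair. Pairs on the same strand made up 52.0% and 58.5%, against 49.1% and 48.0%.

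Gene starts, marked and unmarked together, were sparser inside than outside, pseudogenes excepted. Of 28077 annotated genes, 2396 started in a long interval, a background of 8.53%, and of 19487 protein-coding genes 1222 did, a background of 6.27%. Since H3K4me3 marks the starts of active genes, the rule itself keeps such starts out except near an edge: 16 of the 1222 had an H3K4me3 peak within 1 kb in both replicates, and 3 had H3K27ac. Gene starts numbered 5.12 per Mb inside and 13.3 outside (ratio 0.384), and protein-coding starts 2.61 and 9.49 (ratio 0.275). These ratios count marked and unmarked starts alike, and 73.4% of protein-coding starts outside carried H3K4me3 in both replicates. Outside, 4161 protein-coding starts had neither mark. Of the 1222 inside, in 19.6% of the chromosome length, 18 had H3K4me3 and 8 had H3K27ac in either replicate. By these counts unmarked protein-coding starts were not sparser inside, and the low ratios came from the marked starts outside. Long noncoding genes started inside in 491 of 5399 cases (9.09%). Pseudogenes went the other way, with 612 of 2320 (26.4%) inside, or 1.31 per Mb against 0.888 outside. Protein-coding genes that started inside had a median record length of 1.84 kb, compared with 22.4 kb outside. Of the 821 intervals, 269 had no gene start and 604 no protein-coding start, whereas 51 with 5 or more protein-coding starts held 989 of the 1222.

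Olfactory receptors, the odour-sensing receptors that olfactory neurons express 1 gene at a time, made up 62.9% of the protein-coding starts inside. Of 999 olfactory receptor genes in the annotation, 769 (77.0%) started in 37 intervals, and 766 lay wholly inside. Without this family, 453 of 18488 protein-coding genes (2.45%) started inside. Chromosomes 2 and 9 held 248 and 234 of the receptor genes inside, and chromosome 5 held 84. The cluster with the most protein-coding starts, chr5:19764114-21104104, had 66 such starts, 62 of them olfactory receptors. Its other genes included NEUROD4, a transcription factor of neuron formation, and TESPA1, which acts in developing T cells, and it had 15 CTCF peaks in each replicate. A 719 kb interval on chromosome 9 (chr9:3449586-4168959) also held 62 receptor genes, with 2 CTCF peaks in each replicate.

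CTCF was thinly spread in these clusters, as in the long intervals in general. The 32 intervals with 5 or more olfactory receptors had 4.46 and 4.99 CTCF summits per Mb. The 784 intervals without an olfactory receptor had 5.42 and 6.11. One of the 32 is a V segment interval described below that held over 30 CTCF peaks, and without it the values were 3.13 and 3.63. It was left out for its CTCF number, whereas an X interval with 33 and 30 peaks stayed among the 784. The 32 covered 24.4 Mb and the 784 covered 440.4 Mb, so the 32 were longer on average. All intervals of 600 to 1000 kb had 4.72 and 5.30 per Mb, and the part of length was not tested. In 7 of the 32 no CTCF peak was found in either replicate, among them chr2:53886898-55398593, which at 1512 kb was the longest CTCF-free interval and held 30 receptor genes. GC content was 38.5% in the 32 and 38.3% in the 784, and soft-masked sequence 45.4% and 38.7%. Mapping of reads within near-identical receptor copies was not tested.

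**Figure D4:**
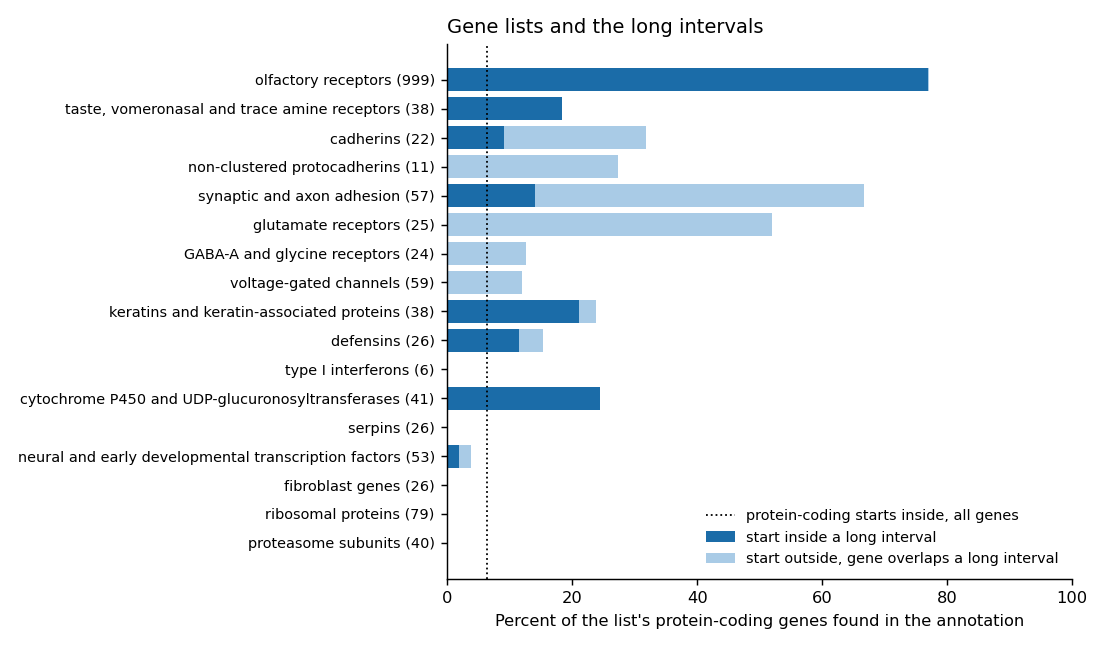
Percent of each list's protein-coding genes (number found in brackets) that started inside a long interval (dark bars) or overlapped one with the start outside (light bars), with a dotted line at 6.27%, the share of all protein-coding genes that started inside. Olfactory receptors reach 77.0% by their starts, while the glutamate receptor bar of 52.0% is light throughout.

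The other lists differed in whether starts or gene bodies met the intervals, and some did neither. Among lists of clustered families, 8 of 38 keratin and keratin-associated genes (21.1%) started inside, all in chr5:17601303-18076111, an interval of 475 kb with 10 CTCF peaks in each replicate. They were KRT1, KRT2, KRT5, KRT6A, KRT74, KRT77, KRT82 and KRT84, type II keratins of skin and hair. By product name, which also takes in genes without a keratin symbol, 21 of 67 keratin genes started in this interval. Of 41 cytochrome P450 and UDP-glucuronosyltransferase genes, which break down drugs and steroids, 10 (24.4%) started inside, and by product name 21 of 66 cytochrome P450 genes did. CYP2C32, CYP2C34, CYP2C36 and CYP2C49 shared a 691 kb interval on chromosome 14 with 1 CTCF peak in each replicate, and CYP3A22, CYP3A29 and CYP3A46 shared 1 of 329.8 kb on chromosome 3 with 4 and 5 CTCF peaks. The count was 3 of 26 for defensins, which are antimicrobial peptides (DEFB1 among them), and 7 of 38 for taste, vomeronasal and trace amine receptors. No start lay inside for 6 type I interferon and 26 serpin genes. The lists of genes used in fibroblasts or in all cells also had no start inside, with 0 of 26 fibroblast genes, 0 of 79 ribosomal protein genes and 0 of 40 proteasome genes. The rule largely fixed these counts, since it keeps marked starts out except near an edge. H3K4me3 was at the start in both replicates in 25, 75 and 37 of these genes. Of 53 neural and early developmental transcription factors, 1 (NEUROD4) started inside, and 48 of the 53 carried H3K4me3 at the start in both replicates.

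Further clustered families were noticed after the values were seen, by their product names, so their counts are examples. For scale, 6.27% of all protein-coding genes started inside, and 2.45% without olfactory receptors. The families looked up by product name but not given below ran from 9.09% (keratin-associated proteins, 4 of 44) to 66.7% (butyrophilins, 8 of 12). All 12 pregnancy-associated glycoprotein genes, products of the placenta, started in a 368 kb interval on chromosome 2 with 5 and 4 CTCF peaks. All 5 intelectin genes, which encode sugar-binding lectins, shared a 552 kb interval on chromosome 4 with 15 and 14 CTCF peaks. Of 12 membrane-spanning 4-domain (MS4A) genes, 9 started in a 527 kb interval on chromosome 2, among them MS4A1, which encodes the B cell antigen CD20. Counts were 16 of 33 for melanoma-associated antigen genes, all on X in 5 intervals, 9 of 12 for UDP-glucuronosyltransferases by product name, 8 of 14 for leukocyte immunoglobulin-like receptors and 7 of 15 for NLR family pyrin domain genes. The NLR genes NLRP4, NLRP5, NLRP8, NLRP9, NLRP11 and NLRP13 are among those, in a family with known members in egg cells, and the 452 kb interval on chromosome 6 that held 6 of the 7 had no CTCF peak in either replicate.

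Very long genes entered the intervals from outside. Among protein-coding genes, 362 overlapped a long interval although their start lay outside, a background of 1.86%, and 307 of the 362 (84.8%) carried H3K4me3 at the start in both replicates. Over all protein-coding starts outside, 73.4% did. The rule bears on this comparison, since an interval's edge is itself a histone peak, and its part was not tested. H3K27ac was present at 150 of the 362 starts (41.4%) in both replicates, below the 64.8% of all protein-coding starts outside. By length, such overlaps involved 0.590% of the 16611 genes under 100 kb, 4.13% of the 2179 genes of 100 to 300 kb, 15.3% of the 524 genes of 300 to 600 kb and 54.3% of the 173 longer ones. A gene's start here is the 5′ end of its RefSeq gene record, and marked starts of shorter transcripts were not sought.

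In the synaptic and axon adhesion list, which holds molecules that join nerve cells or guide axons, 30 of 57 genes (52.6%) overlapped an interval from a start outside, and 27 of the 30 had H3K4me3 at the start in both replicates. A further 8 started inside, namely NRXN3, DCC, OPCML, DSCAM, UNC5D, CNTN6, SLITRK6 and SLITRK4. OPCML and SLITRK4 did so by 0.569 and 0.280 kb from the edge, whereas NRXN3 and DCC started 355 and 326 kb from it. Of 25 glutamate receptor genes, 13 (52.0%) overlapped from outside and 9 of the 13 had H3K4me3 at the start in both replicates. The list counts were 5 of 22 for cadherins, 3 of 11 for non-clustered protocadherins and 3 of 24 for GABA-A and glycine receptors. The overlapping members were long: the median record was 1187 kb for the adhesion genes and 471 kb for the glutamate receptors. Over all members found, the medians were 825 kb and 322 kb. Of all protein-coding genes, 54.3% of those over 600 kb and 15.3% of those of 300 to 600 kb overlapped in this way. The adhesion share was thus close to that of genes of such length, and the part of length was not tested.

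Whole intervals lay within 1 gene record in 126 cases, covering 59.3 Mb in 106 genes, of which 101 were protein-coding. Of these 101, 83 had H3K4me3 at the start in both replicates, 22 (21.8%) had H3K27ac there, and 6 started in another long interval. In 31 of them the start lay within 2 kb of the interval, and 29 of the 31 had H3K4me3 in both replicates, a share largely set by the rule, since an interval's edge is itself a histone peak. CTCF density in intervals within a gene was 5.68 and 6.49 per Mb and in the others 5.35 and 6.01, higher within genes by 0.328 in replicate 1 and 0.478 in replicate 2.

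DMD, the dystrophin gene of muscle, held the longest such interval, 2105 kb or 80.3% of its record, with 7 and 9 CTCF peaks. Its start, marked by H3K4me3 in both replicates and by H3K27ac in neither, lay 0.912 kb from the interval's right edge. CNTN5, a neural cell adhesion gene, was taken up by its interval to 98.3% (1190.0 kb), with 3 and 2 CTCF peaks, and its H3K4me3-marked start lay 1.05 kb away. CSMD1, AGBL4 and TENM3 likewise had marked starts 3.35, 0.819 and 0.924 kb from their intervals, and AGBL4, a gene for an enzyme that trims glutamates from tubulin, also had H3K27ac there in both replicates. Not all hosts were marked: TENM2 and ROBO2, both genes of nerve cell wiring, and RBFOX1, a neuronal splicing factor gene, had neither mark at the record's start, and RBFOX1 started in an interval itself. TENM2 held 3 whole intervals of 1801 kb in sum with 3 CTCF peaks in each replicate.

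Genes that lay whole inside an interval were shorter. The longest protein-coding ones were TMEM132D at 775 kb, in an interval of 1036 kb with 6 and 7 CTCF peaks, and HS3ST4, a heparan sulfate sulfotransferase gene, at 512 kb in an interval of 1541 kb with 6 and 5. TEX11, a gene of meiosis on X, was 381 kb long and filled 93.8% of its interval. PIK3C2G (375 kb), a lipid kinase gene, ATP10B (349 kb), a phospholipid transporter gene, CCDC7 (341 kb), SHISA9 (306 kb), a gene for a glutamate receptor partner, and RPH3A (295 kb), a gene of synaptic vesicle release, followed, together with LOC100623332 (363 kb) and LOC100520241 (328 kb).

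CTCF was rare at the gene starts inside. A CTCF summit lay within 1 kb of 20 and 22 of the 1222 protein-coding starts inside (1.64% and 1.80%). Outside it did so for 19.5% and 23.8% of starts, and for 5.38% and 5.96% of the 4161 outside starts without either histone mark.

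The longest interval of all was chrX:69138429-73207984, of 4069.6 kb, with 8 CTCF peaks in replicate 1 and 10 in replicate 2. It held 4 protein-coding starts, which were KLHL4, CPXCR1, TGIF2LX (a homeobox gene expressed in testis) and LOC110257684, and 13 pseudogenes. Its left edge lay 0.998 kb from the start of DACH2, a transcription factor gene. Next came chr6:20503492-23276642 (2773 kb, 6 and 4 CTCF peaks), which held no protein-coding start. It was parted by under 10 kb from the tenth longest, chr6:23280324-25110635 (1830.3 kb, 10 and 11 peaks), and CDH8, the gene of a neural cadherin, began in the latter and ran into the former.

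The next 3 were on autosomes. On chromosome 12, chr12:28618705-31206731 (2588 kb, 7 CTCF peaks in each replicate) held the starts of CA10 and KIF2B, and the start of TOM1L1 lay 0.641 kb beyond its right edge. CA10 reached only 0.318 kb into the interval, and its start had H3K4me3 within 1 kb in both replicates. On chromosome 11, chr11:34893233-37477655 (2584 kb, 3 and 4 peaks) held no protein-coding start and lay between the starts of the protocadherin genes PCDH20 and PCDH9. On chromosome 4, chr4:25500739-27641186 (2140.4 kb, 6 and 5 peaks) held the start of KCNV1, a potassium channel subunit gene, under 1 kb from its right edge.

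After the DMD interval came chr2:62602802-64606449 (2004 kb), with 46 protein-coding starts, of which 40 were olfactory receptors and 6 adhesion G protein-coupled receptors. It had a single CTCF peak in each replicate, and SLC1A6 and ZNF333 started 1.04 and 1.37 kb beyond its edges. The interval chr14:115588321-117565257 (1977 kb, 8 and 12 peaks) held no protein-coding start, but took in 614 kb of SORCS3, which started 1.15 kb beyond its left edge, and the far end of SORCS1, which started 444 kb beyond its right edge. The SORCS1 sites printed above lay 42.5 and 37.8 kb outside its right edge, and both motifs were on the plus strand and so pointed away from it. In chr1:243504106-245338624 (1835 kb, 10 peaks in each replicate) a single protein-coding gene started, CYLC2, of the sperm head. The motif printed above from 14.7 kb outside its left edge pointed into it.

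The interval with the most CTCF peaks was chr7:76875096-77624105, of 749 kb, which held 35 and 36 of them. It held 45 V gene segments, the units that lymphocytes join to build antigen receptors, all on the minus strand, together with 14 protein-coding starts that included 5 olfactory receptors and SALL2. A record named T-cell receptor delta chain C region (chr7:76554354-76565679) lay 309 kb beyond its left edge, and DAD1 started 443 kb beyond it. The CTCF peaks had median fold enrichments of 13.3 and 11.7 and a median spacing of 12.9 and 15.2 kb. All 17 peaks with a core on a single strand, in either replicate, had it on the minus strand, and of those matched by the weight matrix, 23 and 24 were on the minus strand and 3 on the plus strand. They pointed the same way as the V segments, towards the constant region record. The summits lay a median of 6.40 and 5.52 kb from the nearest V segment start, and 9 and 8 of them lay within 1 kb.

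The 6 core sites of this interval with the highest mean fold enrichment are given below in order along the chromosome, 30 bases each, 5′ to 3′ on the minus strand, with the core in capitals.
V site 1, chr7:77038785-77038814: gcagaatggCCACCAGAGGGCagggcttcc
V site 2, chr7:77175118-77175147: tattcttaaCCTCTAGAGGGCgatgttgca
V site 3, chr7:77244329-77244358: cttcgttgaCCTCTAGAGGGCgatgttgta
V site 4, chr7:77327843-77327872: gcagaatggCCACCAGAGGGCagggcttcc
V site 5, chr7:77380162-77380191: tagctctgaCCTCAAGATGGCagtgtttgc
V site 6, chr7:77450618-77450647: gagatctgaCCACAAGGTGGCagagcatct

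Sites 1 and 4 were identical over these 30 bases, so reads from them may not always be told apart. Site 6 had the highest fold enrichments, 35.3 and 31.6. Site 1 had 19.8 and 20.3 and lay 0.583 kb from the V segment LOC100523619, and site 4 had 26.3 and 29.0. The other interval with V segments, chr3:57001062-57303227, held 6 of them and 12 CTCF peaks in each replicate, of which 1 had a core on the plus strand and 3 on the minus strand. There the V segments too were mixed, with 2 on the plus strand and 4 on the minus strand.

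A second dense interval, named after its values were seen, was chrX:6410393-6809220, between SHROOM2 and WWC3. Its 399 kb held 33 and 30 CTCF peaks, 82.7 and 75.2 per Mb, and 1 long noncoding gene, with no protein-coding start. Of its peaks, 33 of 33 in replicate 1 and 29 of 30 in replicate 2 overlapped a peak of the other replicate, at median fold enrichments of 11.9 and 15.3. They were spaced by a median of 3.71 and 4.48 kb. Unlike the V segment interval, 3 in each replicate held the core pattern, and the matrix matches were on both strands, 11 and 12 plus against 20 and 17 minus. The interval was 45.2% GC and 47.9% soft-masked. After these 2 intervals the count dropped to 15 or fewer in each replicate, and without both the density inside was 5.26 and 5.94 per Mb.

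**Figure D5:**
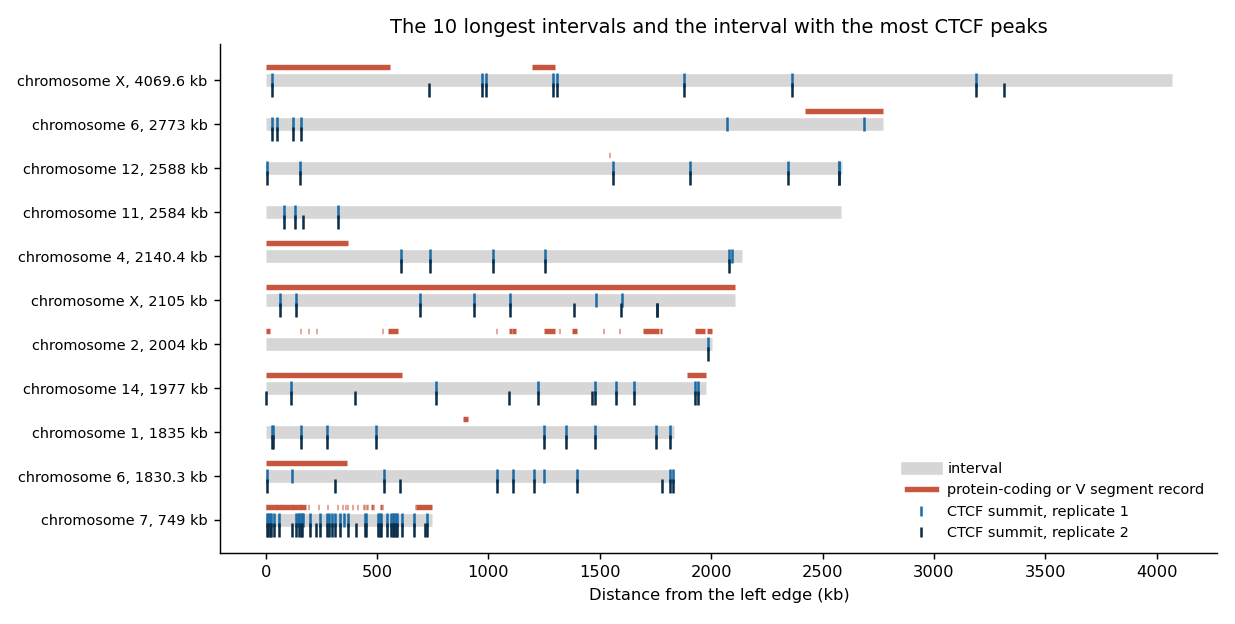
The 10 longest intervals and, in the last row, the 749 kb interval with the most CTCF peaks, drawn as grey bars from the left edge (distance in kb), with protein-coding and V segment records in orange above and CTCF summits of replicates 1 and 2 as light and dark blue ticks. The 4069.6 kb interval of X holds 8 and 10 summits, whereas the last row holds 35 and 36 in 749 kb.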

How the data were processed

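ChIP-seq peak lists of H3K4me3, H3K27ac and CTCF were analysed, 2 replicates each. Inputs were not analysed here. Per the labels and the study's methods, the authors aligned reads to Sscrofa11.1 with Bowtie2, kept uniquely placed pairs without duplicates, and used MACS2 to call narrow peaks. Whether input was the control of these calls is not given in the sources used here. The deposited narrowPeak files give each peak's ratio (fold enrichment), −log10 p-value and −log10 q-value, an integer score and a summit position. They hold no read counts, so depth is unknown and no counting interval can be given. Gaps were taken between pooled histone peaks, CTCF was counted by summit, overlap meant 1 bp, and genes came from RefSeq. Values are means of the 2 CTCF replicates with SD, without tests. Interval arithmetic was tested on simulated data. Python 3.11.15, numpy 2.4.6, pandas 2.3.3 and matplotlib 3.10.9 were used. Members and gene lists were chosen with earlier results of these data known. Named were the 10 longest intervals, the extremes of protein-coding starts and of CTCF number, 5 intervals on either side of 300 kb, genes starting in the 10 longest, the 10 longest genes wholly inside, and list members. Hosts of whole intervals and families by product name were added afterwards. The alternatives changed the histone and CTCF peak sets, the minimum length, unknown bases, the gene set and the motif model.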

Additional observations from a re-analysis of the deposited data

How the results depend on the processing

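Of 116 recomputed values under 18 settings, 49 moved by less than 1 SD between replicates (for the number of intervals, by less than 1.5 times). For the percent of length, the protein-coding percent and the gene start ratio, this SD came from the 2 values without either histone replicate in turn. Both of those values lay on the same side of the reported one, so that SD is not a spread around it. Values without either CTCF replicate in turn were bound to be among the 49. Dropping 1 of 2 replicates always shifts their mean by less than their SD. A further 65 values moved by more, some up and some down, without changing side, and 2 changed side. Those 2 were the share of flank motifs that pointed into the interval, which went from 51.8% to 49.2% with histone peaks of −log10 q of at least 5 and to 48.6% with a minimum length of 200 kb, and the cause was not tested. In what follows, the values stand for the percent of chromosome length, CTCF per Mb inside, the inside to outside CTCF ratio, the flank CTCF ratio, the percent of protein-coding starts inside and the gene start ratio, in that order. They were 22.6, 6.28, 0.301, 0.869, 6.91 and 0.357 with the −log10 q limit, 24.2, 6.57, 0.311, 0.892, 7.30 and 0.349 with histone peaks shared between replicates, 27.6, 7.91, 0.372, 0.863, 10.5 and 0.405 with H3K27ac alone, and 26.2, 6.86, 0.320, 0.895, 7.32 and 0.323 with H3K4me3 alone. With a minimum of 200 kb they were 25.9, 6.67, 0.312, 0.848, 8.44 and 0.367, and with 500 kb 12.1, 4.75, 0.245, 0.80, 4.2 and 0.438, with 54.5% of flank motifs pointing in. Fewer histone peaks or a shorter minimum necessarily leave more sequence in intervals.

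The inner edge ratio was 1.93 with shared histone peaks, 2.25 with H3K27ac alone and 1.97 with H3K4me3 alone, and the difference of median fold enrichment was -1.21 with H3K27ac alone. Without either histone replicate in turn, the percent of length was 20.8 to 22.1, the CTCF ratio 0.291 to 0.296, the flank ratio 0.849 to 0.870, the inner edge ratio 1.98 to 2.01, the protein-coding percent 6.60 to 6.85, the gene start ratio 0.365 to 0.373 and the motif share 51.2% in both cases, while the number of intervals was 864 to 909. Without either CTCF replicate in turn, the CTCF ratio was 0.278 to 0.282, the flank ratio 0.837 to 0.840, the inner edge ratio 2.01 to 2.09, the motif share 51.4% to 52.2%, the density inside 5.39 to 6.07 per Mb and the difference of medians -4.01 to -2.85. CTCF peaks shared between replicates gave 5.10 per Mb inside and a ratio of 0.275. Without intervals of 5% or more unknown bases, the flank ratio was 0.819, the protein-coding percent 5.90 and the gene start ratio 0.366. Protein-coding genes alone gave a gene start ratio of 0.275, and whole gene records inside gave 5.96%. In comparisons chosen after seeing the data, CTCF peaks off histone peaks gave a CTCF ratio of 0.463, an inner edge ratio of 1.97 and a motif share of 52.5%, and leaving out X gave a CTCF ratio of 0.286. The lists give no read depth, so an interval without a peak is one without a call, and weak marks below the callers' limit cannot be seen. Ratios and differences of CTCF values were paired by library throughout, without a test.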
